A study of Mus musculus with 9 samples.

Results

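The transcripts of 10 genes of the colon epithelium were followed in RNA from CD4+ T cells sorted out of inflamed mouse colon. They were chosen by symbol from the 23415 genes of the deposited table, which lists them as EPCAM, KRT8, KRT18, KRT19, KRT20, MUC2, REG3B, REG3G, CAR1 and PIGR. Colitis had been induced by transfer of naive CD4+CD25-CD45RBhigh T cells into Rag1-/- mice, which have no T or B cells of their own. Donor cells came from CD160 knockout mice or from wildtype littermates, and at peak disease the intraepithelial fraction was stripped with DTT before the lamina propria was digested and CD4+ T cells were sorted. The 4 libraries labelled CD160 Knockout are called knockout and the 5 libraries labelled Control are called control; all recipients lacked Rag1. The labels give no age, no knockout allele and no statement that each library is a separate recipient, and the tests therefore weigh differences against the variation among libraries only.

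The colon epithelium is a single sheet of cells held together by adhesion proteins and stiffened by keratin filaments, which form from pairs of type I and type II keratins. Absorptive colonocytes take up water and ions, goblet cells secrete the mucus gel, and the sheet releases IgA and antimicrobial proteins into the lumen. Reg3b and Reg3g are secreted C-type lectins that act against bacteria. In the gut, their genes are induced by interleukin 22, a cytokine made by T cells and innate lymphoid cells, through the transcription factor STAT3. These genes are known chiefly from epithelial cells, not from T cells.

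Reg3b and Reg3g lie at the ends of a cluster of Reg genes on chromosome 6 and carry related promoters, shown here because their transcripts also varied together across the libraries. Reg3b lies on the plus strand at 78370885 to 78373466 and Reg3g on the minus strand at 78466269 to 78468874 (GRCm38), with 92.8 kb between them. Each promoter below is the RefSeq window of GRCm38.p6 from 250 bases before to 50 bases after the gene start, read 5′ to 3′ in the direction of the gene, at chr6:78370635-78370934 for Reg3b and chr6:78468825-78469124 for Reg3g. Capitals mark a match to TTCNNNGAA, a motif of the STAT type that reads the same on both strands.
Reg3b: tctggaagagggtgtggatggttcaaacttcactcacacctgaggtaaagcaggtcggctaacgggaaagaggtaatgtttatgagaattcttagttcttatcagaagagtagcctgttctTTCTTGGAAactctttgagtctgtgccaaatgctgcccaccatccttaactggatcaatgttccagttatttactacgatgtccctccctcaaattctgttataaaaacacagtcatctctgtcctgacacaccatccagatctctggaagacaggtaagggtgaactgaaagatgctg
Reg3g: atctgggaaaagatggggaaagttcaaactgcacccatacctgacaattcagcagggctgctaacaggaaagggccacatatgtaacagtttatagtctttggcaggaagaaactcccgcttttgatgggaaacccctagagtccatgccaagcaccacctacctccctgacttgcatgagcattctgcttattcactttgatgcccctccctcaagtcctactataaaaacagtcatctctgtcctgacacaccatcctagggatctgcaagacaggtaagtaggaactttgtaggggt
The promoters matched at 214 of 310 positions of a global alignment with gaps, or 69.0%. The Reg3b window held 1 match to the motif, beginning at position -129 from the gene start, and the Reg3g window held 0. Of the 8 members with a promoter in the table, 2 held a match, Reg3b and Pigr, and of all 32851 promoters 8.3% did. The longest coding transcripts of the lectin pair (GENCODE M21) were 68.6% identical and shared 0 stretches of 38 bases, the read length given in the labels, so no intact read is common to both.

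The libraries carried a strong T cell signal and also transcripts of other cells. Values are TPM, the abundance of a gene's transcripts corrected for length and scaled to a common total, and the depth behind them is unknown. The knocked-out gene Cd160 stood at 5.44 to 18.8 TPM in knockout and at 31.8 to 212.4 TPM in control libraries, a difference in log2(TPM + 1) of -2.79 ± 0.64 (SE; limma, adjusted p = 0.572). Control replicate 1 stood apart: 7308 genes reached 1 TPM in it, compared with 11088 to 11711 in the other 8, and results are therefore also given without it. The summed level of 7 T cell genes (Cd3d, Cd3e, Cd3g, Cd4, Cd2, Cd5 and Lck) was 3707 to 4696 TPM in knockout libraries. It was 4559 to 5298 TPM in control replicates 2 to 5 and 1716 TPM in control replicate 1. The summed level of 8 macrophage genes, led by Lyz2, C1qb and C1qa, was 8124 to 14260 TPM in knockout libraries and 922.2 to 9219 TPM in controls. The sum of 5 stroma genes was 42.3 to 344.3 and 3.25 to 122.4 TPM. The B cell gene Ms4a1 and the plasma cell gene Mzb1 were at 0 in all 9 libraries.

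Taken as a sum, the 10 epithelial transcripts made up a small fraction of every library. The sum was 176.7, 108.1, 144.3 and 125.6 TPM in knockout replicates 1 to 4 and 54.2, 64.4, 324.4, 33.9 and 56.5 TPM in control replicates 1 to 5. Control replicate 3 was the highest library and control replicate 4 the lowest, and every control but replicate 3 lay below all 4 knockout libraries. Knockout libraries averaged 138.7 ± 29.3 TPM (SD, n = 4) and controls 106.7 ± 122.3 TPM (SD, n = 5), and the control mean was 52.2 TPM without control replicate 3 and 119.8 TPM without control replicate 1. In bulk RNA, a difference in the number of epithelial cells and a difference in RNA per epithelial cell cannot be told apart. Whether these transcripts came from epithelial cells was not tested.

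**Figure D1:**
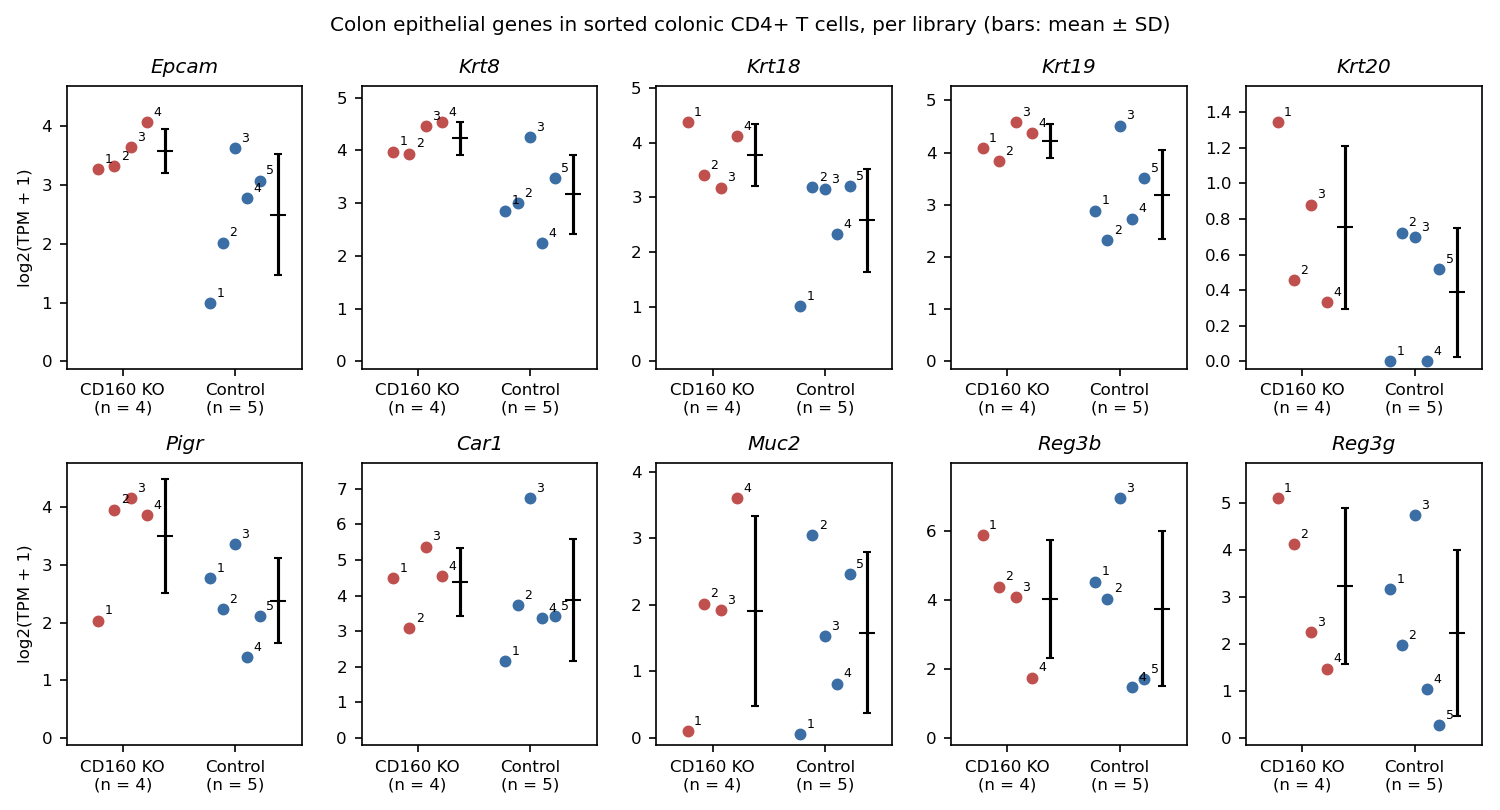
Each panel plots 1 gene as log2(TPM + 1) per library, with replicate numbers beside the points, knockout libraries in red, control libraries in blue, and the mean ± SD of each group as a bar. The groups overlap for all 10 genes; Reg3b and Reg3g spread over the widest range, and Epcam, Krt8 and Krt19 lie lower in 4 of 5 controls than in any knockout library.

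Epcam and the keratins Krt8, Krt18 and Krt19, structural genes of the epithelial cell, had the smallest SDs of log2(TPM + 1) within groups among the members tested with all 9 libraries. Epcam, an adhesion molecule of epithelial cell membranes (chromosome 17, 87635979 to 87651127), had 8.66, 9.02, 11.5 and 15.8 TPM in the knockout libraries, in replicate order, and 0.98, 3.05, 11.3, 5.87 and 7.43 TPM in the controls. Control replicate 3 reached into the knockout range, and the other 4 controls lay below all 4 knockout libraries. On the log2(TPM + 1) scale, knockout minus control came to 1.08 ± 0.53 (SE), with an adjusted p of 0.745 from limma over all tested genes. Without control replicate 1 it came to 0.70 ± 0.33 (adjusted p = 0.425). This scale understates the change of genes at low levels.

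Krt8, the type II keratin of simple epithelia (chromosome 15, 101996711 to 102004342), stood at 14.8, 14.3, 20.9 and 22.3 TPM in knockout and 6.26, 6.97, 18.1, 3.73 and 10.1 TPM in control libraries. As for Epcam, control replicate 3 was the control library inside the knockout range. The log2 difference came to 1.06 ± 0.46 (SE) (limma, unadjusted p = 0.0406, adjusted p = 0.736), and 0.99 ± 0.38 (unadjusted p = 0.0307, adjusted p = 0.322) without control replicate 1. Krt8 has processed copies elsewhere in the genome: 33.1% of the 38-base stretches of its transcript occur in other GENCODE genes, chiefly Krt8-ps, so its level depends on how the authors' counting shared such reads.

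Krt18, a type I keratin that pairs with Krt8, lies 23.9 kb from it on chromosome 15 (102028216 to 102032026). It stood at 19.8, 9.59, 8.05 and 16.4 TPM in knockout libraries and at 1.02, 8.11, 7.87, 4.01 and 8.21 TPM in controls. Knockout replicate 3 lay among the controls and the other 3 knockout libraries above all of them. The log2 difference came to 1.19 ± 0.53 (SE) (limma, unadjusted p = 0.0455, adjusted p = 0.745), and 0.80 ± 0.31 (unadjusted p = 0.0305, adjusted p = 0.322) without control replicate 1. Of its 38-base stretches, 5.36% occur in other genes.

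Krt19, a type I keratin of the intestinal lining (chromosome 11, 100140810 to 100145926), was at 15.9, 13.4, 23.0 and 19.7 TPM in knockout and 6.39, 3.99, 21.9, 5.66 and 10.3 TPM in control libraries. Control replicate 3 again stood with the knockout libraries. Its log2 difference came to 1.03 ± 0.49 (SE) (limma, adjusted p = 0.745), and to 0.95 ± 0.43 (adjusted p = 0.404) without control replicate 1. Krt20, the keratin of mature surface cells (chromosome 11, 99428385 to 99438153), reached 1 TPM in only 1 library, knockout replicate 1 at 1.54 TPM. It was at 0.26 to 0.84 TPM in the other knockout libraries and at 0 to 0.65 TPM in controls, below the filter of 1 TPM in at least 4 libraries, so it entered no test. Its log2 difference was 0.37, and 0.27 without control replicate 1.

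Pigr carries polymeric IgA through the epithelial cell into the lumen (chromosome 1, 130826684 to 130852249). It was at 3.10, 14.6, 16.8 and 13.5 TPM in the knockout libraries and at 5.85, 3.72, 9.28, 1.64 and 3.34 TPM in controls. Knockout replicate 1 lay below 4 of the 5 controls, while the other 3 knockout libraries lay above all controls. The log2 difference came to 1.12 ± 0.54 (SE) (limma, unadjusted p = 0.0626, adjusted p = 0.745), and 1.22 ± 0.54 (unadjusted p = 0.0495, adjusted p = 0.389) without control replicate 1.

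Car1, a carbonic anhydrase abundant in colonocytes (chromosome 3, 14766214 to 14808365), had no such separation. It was at 21.5, 7.45, 40.6 and 22.4 TPM in knockout and at 3.44, 12.2, 105.2, 9.35 and 9.65 TPM in control libraries. Control replicate 3 was higher than all other libraries and knockout replicate 2 was lower than every control but replicate 1. Knockout libraries averaged 23.0 ± 13.6 TPM (SD, n = 4) and controls 28.0 ± 43.3 TPM (SD, n = 5). The log2 difference came to 0.50 ± 0.84 (SE), and 0.066 ± 0.78 without control replicate 1 (adjusted p in limma 0.756 and 0.987). Without control replicate 3 it was 1.21. GENCODE lists a copy, Gm5843, that holds 18.5% of its 38-base stretches.

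Muc2, the gel-forming mucin of goblet cells (chromosome 7, 141690340 to 141754691), was at 0.07, 3.05, 2.78 and 11.1 TPM in knockout and at 0.04, 7.29, 1.89, 0.76 and 4.52 TPM in control libraries. It was close to 0 in knockout replicate 1 and control replicate 1 and highest in knockout replicate 4, so that both groups ran from near 0 to several TPM. The log2 difference came to 0.32 ± 0.73 (SE) (limma, adjusted p = 0.801). It turned to -0.057 ± 0.73 (adjusted p = 0.988) without control replicate 1 and to -0.24 without knockout replicate 4.

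By the SD of log2(TPM + 1) within groups, the Reg3 lectins were the most variable members. Reg3b had 57.9, 19.9, 16.0 and 2.35 TPM in the knockout libraries and 22.2, 15.5, 122.3, 1.77 and 2.28 TPM in the controls. Reg3g was at 33.5, 16.5, 3.78 and 1.78 TPM in knockout and at 8.01, 2.93, 26.0, 1.06 and 0.21 TPM in control libraries. For both genes, control replicate 3, knockout replicates 1 and 2 and control replicate 1 were the 4 highest libraries, and knockout replicate 4 and control replicates 4 and 5 the 3 lowest. High and low libraries thus occurred in both genotypes, and the ratio of the highest to the lowest library was 69.1 for Reg3b and 159.5 for Reg3g, beside 278.2 for Muc2, whose lowest values are close to 0.

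Group differences of the lectins were small against this spread. Reg3b averaged 24.0 ± 23.8 TPM (SD, n = 4) with knockout cells and 32.8 ± 50.8 TPM (SD, n = 5) with control cells, while its log2 difference came to 0.28 ± 1.14 (SE), opposite in sign to the difference of the means. Without control replicate 1 the log2 difference was 0.48 ± 1.27, and the adjusted p in limma was 0.883 and 0.931. The mean of Reg3g was 13.9 ± 14.6 TPM (SD, n = 4) for knockout and 7.64 ± 10.7 TPM (SD, n = 5) for control, with a log2 difference that came to 1.00 ± 0.97, and to 1.23 ± 1.07 without control replicate 1. The adjusted p values of Reg3g were 0.745 and 0.696. Single libraries decided the sign for Reg3b, which was -0.34 without knockout replicate 1, -0.28 without control replicate 4, -0.22 without control replicate 5 and 1.09 without control replicate 3. Reg3g stayed positive but moved to 0.38 without knockout replicate 1, 0.51 without control replicate 5, 1.59 without knockout replicate 4 and 1.63 without control replicate 3. A p above the threshold does not show that the groups are alike.

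The spread of the lectins was wide beside that of other genes, given here as a description. The pooled SD of log2(TPM + 1) within groups was 2.04 for Reg3b and 1.73 for Reg3g, larger than that of 99.4% and 98.7% of tested genes. It was 1.43 for Car1 and 1.31 for Muc2, larger than 94.4% and 90.1%. Krt8, Krt19 and Epcam had 0.60, 0.68 and 0.81, larger than 30.6%, 38.1% and 50.8%. Without control replicate 1 the shares were 99.5% for Reg3b, 99.2% for Reg3g, 98.3% for Car1, 97.9% for Muc2, 91.8% for Krt8, 93.5% for Krt19 and 88.4% for Epcam.

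**Figure D2:**
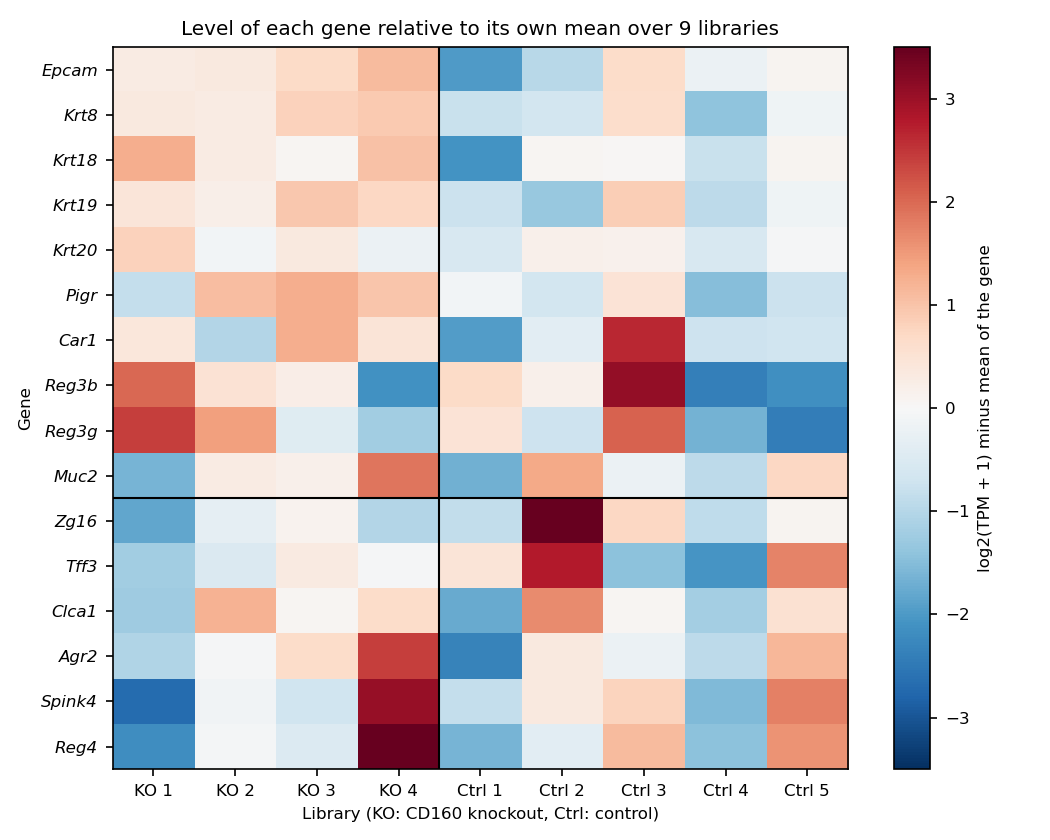
Colour shows log2(TPM + 1) of each gene (rows) in each library (columns) minus the mean of that gene over the 9 libraries; the rows above the line are the 10 members and those below it are goblet and crypt secretory genes. Reg3b and Reg3g are red in KO 1 and Ctrl 3 and blue in KO 4, Ctrl 4 and Ctrl 5, whereas Spink4, Agr2 and Reg4 are red in KO 4.

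Ratios taken within a library do not depend on its total, and they showed that the mixture of epithelial transcripts differed between libraries. Krt19 relative to Krt8 was the steadiest ratio, from 0.572 in control replicate 2 to 1.52 in control replicate 4. Krt8 relative to Epcam ran from 0.635 to 2.29 in the libraries other than control replicate 1, where it was 6.39. Reg3b relative to Epcam ran from 0.149 in knockout replicate 4 to 22.6 in control replicate 1, or to 10.8 in control replicate 3 without that library. Muc2 relative to Epcam ran from 0.00808 in knockout replicate 1 to 2.39 in control replicate 2. Reg3g relative to Reg3b stayed below 1 in all 9 libraries, between 0.0921 and 0.83. The lectin pair made up 3.29% of the members' summed TPM in knockout replicate 4 and 51.7% in knockout replicate 1, and 4.40% in control replicate 5 and 55.7% in control replicate 1.

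**Figure D3:**
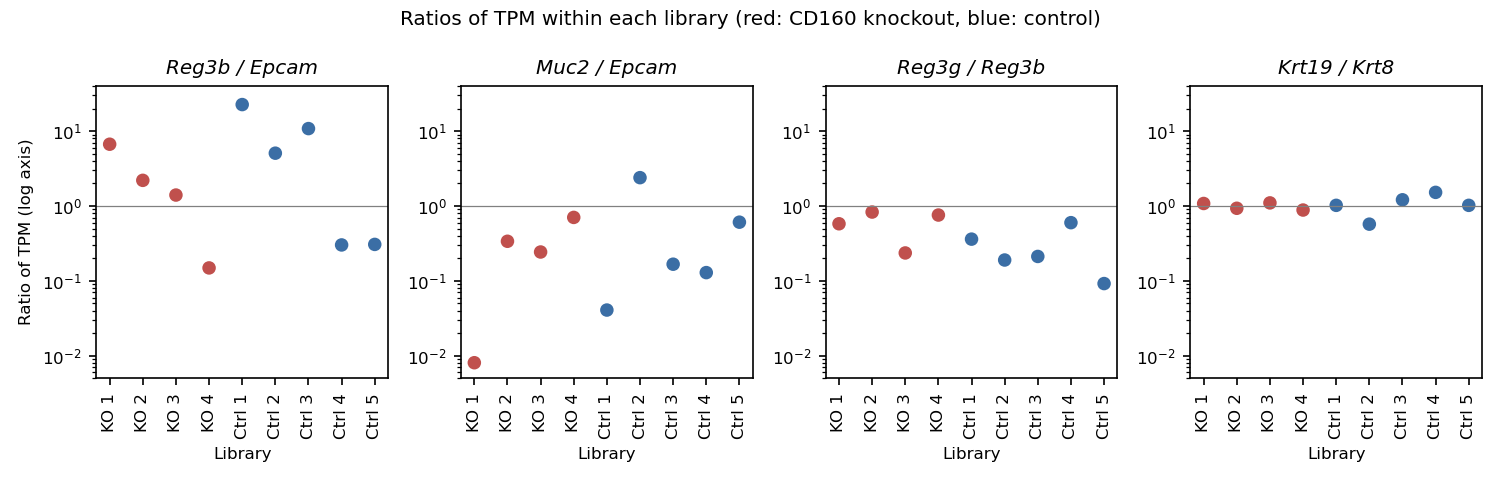
Points give the ratio of TPM between a pair of genes within each library on a log axis, knockout in red and control in blue. Krt19 to Krt8 stays between 0.572 and 1.52, while Reg3b to Epcam runs from 0.149 to 22.6.

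Patterns were compared by the mean absolute difference between log2(TPM + 1) values centred on each gene's own mean. Reg3b and Reg3g were each other's most alike gene among all 11495 tested, at 0.666 over 9 libraries and 0.726 over the 8 without control replicate 1. The nearest genes outside the members were at 0.880 for Reg3b (Snora28, a small nucleolar RNA) and 0.906 for Reg3g (Gm9733), followed by Trav9d-2 and Trav13-3 for Reg3b and Tcrg-C3 and Cd177 for Reg3g. The median over all tested genes was 1.70 and 1.66. Over the 8 libraries they came closer to the 0.726 of the pair, with Snora28 at 0.863 and Trav21-dv12 at 0.910 for Reg3b, and Tcrg-C3 at 0.773 and Trav21-dv12 at 0.782 for Reg3g. Epcam was most like Sys1, Rps2 and Nsun2 over 9 libraries, at 0.191, 0.199 and 0.219, and like Tm4sf20, Psmd3 and Rnf128 over 8, at 0.157, 0.185 and 0.185. Its nearest member was Krt8 at 0.385 and, without control replicate 1, Krt19 at 0.273, against a median over tested genes of 0.534 and 0.478. Genes with small spread lie close to many others by this measure.

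Of the 10 members, 9 passed the filter and 0 were called in limma at an adjusted p of 0.05, in a comparison that called 2 of 11495 genes, 0.0174%. These were Tmod4, higher in knockout, and an entry for the reporter tdTomato, lower in knockout. For tdTomato the 5 controls had 2.52 to 8.78 TPM and the 4 knockout libraries 0, and the labels used here name no reporter. At an unadjusted p under 0.05 there were 2 members, Krt8 and Krt18, against 6.39% of tested genes; both lay higher in knockout, as did 5.78% of tested genes, with 0.618% lower. These p-values from limma were lost under some settings: for Krt8 they were 0.431 with median-of-ratios and 0.377 with quantile scaling, for Krt18 0.0475 and 0.0612, and with single libraries left out they ran from 0.0128 to 0.111 and from 0.0305 to 0.125. Without control replicate 1 there were 3, Krt8, Krt18 and Pigr, against 12.8% of 11457 tested genes (8.44% higher and 4.41% lower in knockout), and again 0 were called at an adjusted p, against 0.0262%. In no member were the groups free of overlap, which they were for 4.93% of tested genes, or 7.02% without that library. All 10 members had a positive log2 difference, as did 86.7% of tested genes, but Car1 and Reg3b were negative after median-of-ratios scaling (-0.048 and -0.34), which moved the median of tested genes from 0.46 to 0.018 and that of the members to 0.40; without control replicate 1, 9 of 10 did, Muc2 being the exception, beside 47.5% of tested genes. The median of the members was 1.01 with 9 libraries and 0.75 with 8, beside medians of 0.46 and -0.014 for the tested genes. Above these medians lay 7 of 10 members with 9 libraries and 9 of 10 with 8.

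**Figure D4:**
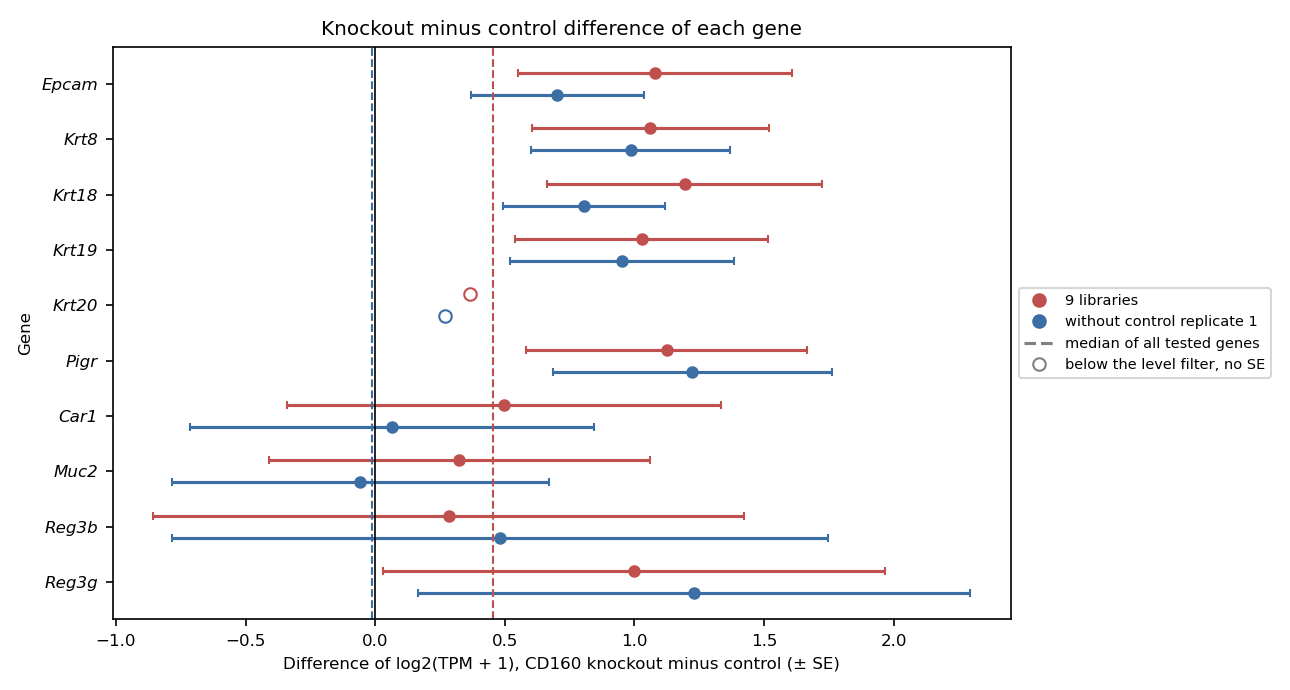
Points show the knockout minus control difference of log2(TPM + 1) for each gene with its standard error, from all 9 libraries in red and without control replicate 1 in blue; dashed lines are the medians of all tested genes, 0.46 and -0.014, and open points mark Krt20, which was below the filter. Epcam, Krt8, Krt18, Krt19 and Pigr lie between 0.70 and 1.22 in both fits, and the bars of Car1, Muc2 and Reg3b span 0.

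The sum of Epcam and the 4 keratins was 60.7, 46.7, 64.3 and 74.4 TPM in knockout and 14.7, 22.8, 59.8, 19.3 and 36.5 TPM in control libraries. Control replicate 3 was the only control above the lowest knockout library. The macrophage genes also lay higher in knockout libraries: all 8 had positive differences, both with and without control replicate 1. In both fits 7 had an unadjusted p under 0.05 in limma, and 0 were called. Of all tested genes, 86.7% were positive and 6.39% had such a p with all libraries. Without control replicate 1 these shares were 47.5% and 12.8%. Control replicate 3 separated the lists, since it was high for the epithelial sum at 59.8 TPM and low for the macrophage sum at 2447 TPM, whereas control replicate 2 had 22.8 and 9219 TPM. Of the 7 T cell genes, 4 had positive and 3 negative differences with all libraries (median 0.30), and 7 had negative ones without control replicate 1 (median -0.24). With all libraries 0 had an unadjusted p under 0.05 in limma. Without control replicate 1, 3 did, against 12.8% of tested genes, and 0 were called. For Cd3g (unadjusted p = 0.000751 in limma) the groups then did not overlap, as for 7.02% of tested genes. The part of other cells in the differences of the epithelial genes was not tested.

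**Figure D5:**
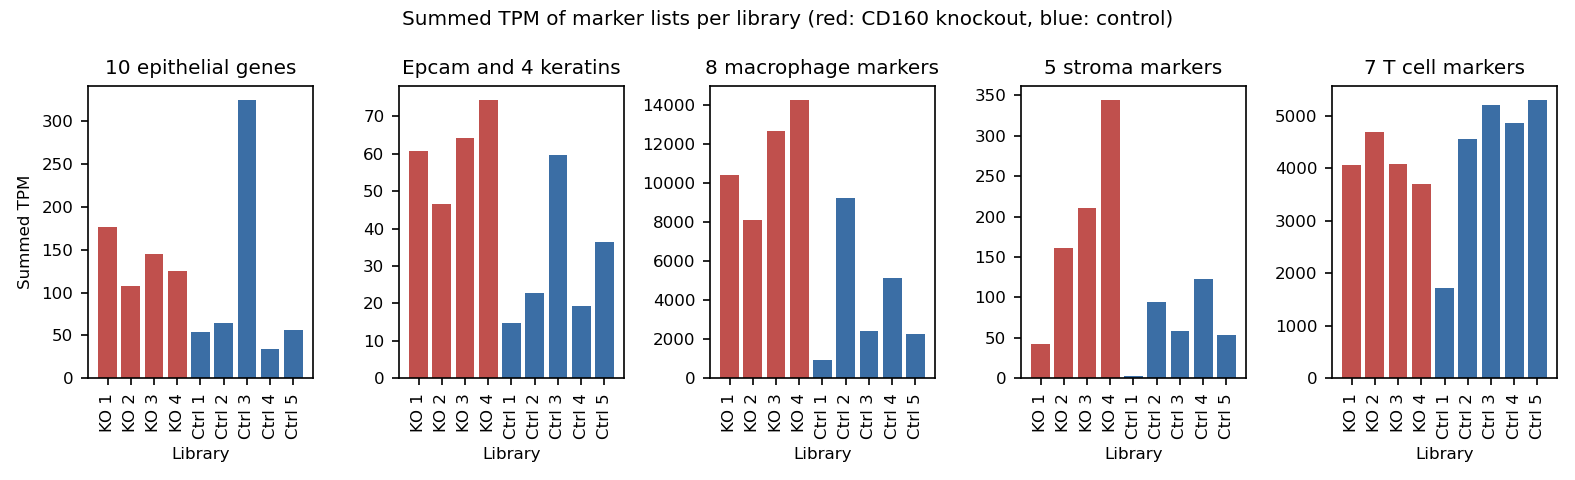
Bars give the summed TPM of 5 gene lists in each library, knockout in red and control in blue. The sum of the 10 epithelial genes is highest in Ctrl 3, at 324.4 TPM, while the sum of 8 macrophage genes is 2447 TPM there and 8124 to 14260 TPM in the 4 knockout libraries.

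Other epithelial genes, listed by cell function, were compared in the same fit, and 0 in any of these lists were called at an adjusted p of 0.05. Among 8 junction genes, 8 had positive differences, with a median of 0.50, and 3 had an unadjusted p under 0.05, beside 86.7% positive and 6.39% under 0.05 among tested genes. Leaving out control replicate 1, 7 of 8 were positive, with Cdh1 at -0.55, and 2 had such a p, with Cldn7 at 0.0692 in limma. The 3 genes were Cldn7 and Cldn3, tight junction claudins, and F11r, a junctional adhesion molecule that leukocytes also carry. Cldn7 stood at 7.76, 7.46, 13.1 and 15.8 TPM in knockout and 1.34, 3.28, 11.5, 0.9 and 6.94 TPM in control libraries, with control replicate 3 again the control inside the knockout range. Cdh1, or E-cadherin, which some T cells also express, was highest in control replicate 3 at 32.6 TPM. Among 7 epithelial transcription factors all had positive differences, with a median of 0.17, but 6, led by Hnf4a and Klf5 with means of 0.75 and 0.669 TPM, averaged under 1 TPM. The exception was Elf3, an ETS factor of epithelial cells, at 3.42, 1.92, 4.19 and 6.04 TPM in knockout and 0.36, 0.98, 2.68, 0.99 and 1.98 TPM in control libraries (log2 difference 1.04 ± 0.36, SE).

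Absorptive colonocyte genes were unevenly represented. Lgals4, a galectin of the gut epithelium, led the list at 38.2 to 71.9 TPM in knockout and 5.12 to 61.3 TPM in control libraries, followed by Car2 and Phgr1. Car2, another carbonic anhydrase, had its highest value in control replicate 3, 59.6 TPM, the library in which Car1 peaked. The water channel Aqp8 was at 0 in 8 of 9 libraries and the chloride exchanger Slc26a3 reached at most 0.53 TPM. Of 12 genes, 10 had positive differences, with a median of 0.52, and 9 of 12 without control replicate 1, with a median of 0.27. Among tested genes 86.7% and 47.5% were positive.

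Goblet cell and mucus genes divided the libraries differently from Epcam and the keratins. Spink4, a secreted goblet cell peptide, was at 3.40, 25.0, 16.7 and 233.4 TPM in knockout and 14.8, 34.9, 47.9, 8.71 and 95.7 TPM in control libraries. Agr2, a chaperone needed for mucin folding, was likewise highest in knockout replicate 4 at 117.0 TPM and in control replicate 5 at 48.8 TPM. Zg16, a lectin of the mucus layer, was at 174.6 TPM in control replicate 2 and at 2.17 to 17.4 TPM in the other 8 libraries. Muc2 itself was highest in knockout replicate 4, control replicate 2 and control replicate 5. Of these 9 genes, 4 had positive and 5 negative differences, with a median of -0.035, and -0.15 without control replicate 1. With all libraries 86.7% of tested genes had positive differences.

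The other genes of the Reg family were listed at or close to 0, with the exception of Reg4. Reg3d, Reg3a, Reg2 and Reg1 lie in that order between Reg3b and Reg3g on chromosome 6; Reg1, Reg3a and Reg3d were listed at 0 in all 9 libraries and Reg2 reached 0.12 TPM in knockout replicate 3. Reg4, a lectin of crypt secretory cells, was at 0, 3.31, 2.25 and 50.3 TPM in knockout and at 0.45, 2.47, 8.67, 0.66 and 12.6 TPM in control libraries. It was thus highest in the library where Reg3b and Reg3g were among the lowest, and listed at 0 in knockout replicate 1, where Reg3g was highest.

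Interleukin 22, the inducer of the Reg3 lectins, was itself present in the T cell libraries. Il22 stood at 28.6, 95.9, 15.8 and 8.92 TPM in knockout and at 11.4, 55.0, 35.2, 21.9 and 12.4 TPM in control libraries, which put the log2 difference at 0.14 ± 0.71 (SE). Knockout replicate 2, the highest for Il22, ranked 4 among the 9 libraries for Reg3b and 3 for Reg3g, and knockout replicate 4, the lowest for Il22, was among their 3 lowest. Control replicate 2 was next highest for Il22 and ranked 6 for both lectins. Control replicate 1 was next lowest for Il22 but ranked 3 for Reg3b and 4 for Reg3g. The receptor chain Il22ra1, which epithelial cells carry, was at most 0.03 TPM, while the shared chain Il10rb and the signal transducer Stat3, both expressed in T cells, were at 64.1 to 133.5 and 69.4 to 123.6 TPM in the 8 libraries other than control replicate 1. Of the 9 genes of this axis, 9 had positive differences, beside 86.7% of tested genes. In limma 0 had an unadjusted p under 0.05, beside 6.39%. Without control replicate 1, 4 were positive and 5 negative, where 47.5% of tested genes were positive.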

How the data were processed

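RNA of sorted colonic CD4+ T cells was profiled in 4 knockout and 5 control libraries, made by a modified SMART-Seq2 method from polyadenylated RNA with 38-base paired reads, per the labels' protocols. The deposited values are TPM computed by the authors. Per the submitters' processing notes, the build was GRCm38 and the tools included RSEM 1.2.31, Bowtie2 2.2.9 and Trimmomatic 0.32; settings and annotation are not given in the sources used here. TPM keeps no depth, so no counting error or floor is given. The median-of-ratios alternative rescales TPM columns. Groups and replicate numbers follow the titles.

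Differences were fitted with limma 3.58.1 in R 4.3.3 (lmFit, eBayes with trend) on log2(TPM + 1). The 11495 genes tested reached 1 TPM in 4 or more libraries, with Benjamini-Hochberg adjustment over all of them and a threshold of 0.05. Medians and directions of gene lists use all genes listed, also those below the filter. Member symbols were looked up, ignoring case, in RefSeq for GRCm38.p6 (10 of 10 members), and their transcripts in GENCODE M21. Promoters came from RefSeq, and alignments were made with Biopython 1.88. Python 3.11.15 with matplotlib 3.10.9 made the figures.

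All 10 members are named, and of each other list the 3 genes with the highest mean and any called gene. Cldn3, Aqp8, Slc26a3, Il22ra1, Reg3a, Reg3d, Ms4a1, Mzb1 and Ly6g were also named after their values were seen. The members and lists were chosen with earlier results of these data known. The alternatives are other pseudocounts, filters, scalings and variance estimates, a replicate block and leaving out libraries. The fit was also run on simulated data. The only requirement there was on the mean estimate of the largest simulated differences, without control replicate 1. No requirement was set on the calls.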

Additional observations from a re-analysis of the deposited data

Results flagged for a closer look

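A sample far from the others of its group was found in 16 of 122 group checks with Dixon's criterion, which marks about 1 group in 20 by chance. Among the members, Pigr in knockout replicate 1, at 3.10 TPM, was far below the other knockout libraries (gap over range 0.862), and the summed level of the 10 members in control replicate 3, at 324.4 TPM, was far above the other controls (0.719).

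Knockout replicate 1 also stood apart for the summed level of stem and secretory epithelium genes, which was the lowest of its group (0.891), and of neutrophil genes, which was the highest (0.902). Control replicate 1 was the low library in the remaining 12 checks. These were the summed levels of the epithelial junction (0.728), IL-22 axis (0.939), T cell (0.867), stroma (0.755) and endothelium (0.827) lists and the genes Lgals4 (0.833), Stat3 (0.832), Il10rb (0.966), Cd3g (0.848), Lck (0.885), Dcn (0.773) and Pecam1 (0.82). The reason for these deviations was not tested.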

How the results depend on the processing

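The log2 differences of Epcam, Krt8, Krt18, Krt19, Pigr and Reg3g were positive under all 20 alternatives, from 0.44 to 1.41 for the 3 keratins, 0.58 to 1.36 for Epcam, 0.52 to 1.66 for Pigr and 0.030 to 1.79 for Reg3g, and no member was called under any of them in limma (lowest adjusted p 0.311, for Krt8). Reg3b turned negative with median-of-ratios scaling (-0.34), quantile scaling (-0.29), without knockout replicate 1 (-0.34) and without control replicate 4 (-0.28) or 5 (-0.22). Car1 turned negative with median-of-ratios (-0.048) and quantile scaling (-0.066). Muc2 turned negative without knockout replicate 4 (-0.24), without control replicate 1 (-0.057), and without the latter together with median-of-ratios scaling (-0.072) or a pseudocount of 0.1 (-0.44). Leaving out single libraries gave -0.34 to 1.09 for Reg3b and -0.24 to 0.93 for Muc2. Median-of-ratios scaling moved the median of all tested genes from 0.46 to 0.018 and that of the members from 1.01 to 0.40; the cause of the sign changes was not tested. Krt20 went from 0.37 to 1.21 with a pseudocount of 0.1, and to 0.80 when control replicate 1 was also left out. The 5 TPM filter left out Muc2, so it has no value there.

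The number of genes called, 2 with all libraries, was 0 without a filter and with the filter of 5 TPM, 1 with a pseudocount of 5, and 0 to 3 when a library was left out. Without control replicate 1 it was 4 with median-of-ratios scaling and 5 with a pseudocount of 0.1. With the replicate number as a block 0 genes were called, with 750 at an unadjusted p under 0.05, and 0 also without control replicate 1. In that block Reg3b was at -0.22, and without control replicate 1 Reg3b was at -0.75 and Car1 at -0.27. Libraries with the same number did not deviate together (correlations across genes -0.017, -0.093, -0.14 and -0.089, and 0 of 4 knockout libraries closest to their own number). The check thus gave no sign that the numbers pair libraries. It cannot exclude pairing, because the deviations were taken from group means that include control replicate 1. The depth behind the TPM values is unknown, and values near 0 such as those of Krt20 and Muc2 carry an unknown counting error.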

Other observations

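Genes of antimicrobial defence outside the Reg family showed further patterns. Lyz1, a lysozyme whose sequence is close to that of the macrophage gene Lyz2, led this list at 1053, 578.7, 811.8 and 912.3 TPM in knockout and 135.9, 700.4, 169.6, 377.1 and 152.7 TPM in control libraries, and the way reads were shared between the lysozyme pair is not given. Saa3, an acute-phase protein of epithelial and myeloid cells, was at 304.3, 12.3, 25.8 and 27.9 TPM in knockout and at 61.4, 7.15, 2.46, 2.25 and 0.18 TPM in control libraries. Its log2 difference came to 2.85 ± 1.16 (SE) (limma, unadjusted p = 0.0317, adjusted p = 0.708), and the groups overlapped. Without control replicate 1 it came to 3.71 ± 0.94 (limma, adjusted p = 0.170). The groups then did not overlap, as for 7.02% of tested genes. The same libraries, knockout replicate 1 and control replicate 1, had the highest levels of the neutrophil genes S100a8, at 62.3 and 209.9 TPM, and S100a9, at 44.5 and 80.2 TPM. The other neutrophil genes listed differed: Csf3r was highest in knockout replicate 1 at 20.3 TPM but lowest in control replicate 1 at 3.30 TPM. Its log2 difference came to 1.29 ± 0.40 (SE; limma, unadjusted p = 0.0084, adjusted p = 0.598). Ly6g was at 4.13 TPM in knockout replicate 1 and 0.80 TPM in control replicate 1. Lypd8, which keeps flagellated bacteria away from the colon surface, was at 12.0 to 32.4 TPM in knockout and 2.82 to 21.7 TPM in control libraries.

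Lists of other cell types had 0 called genes in limma. Their directions with all libraries stand beside 86.7% positive among tested genes. Stem and secretory epithelium genes, led by Axin2 (which T cells also express), Lgr5 and Dclk1, had 4 positive and 4 negative differences, with a median of -0.021. Dendritic cell genes, led by Itgax, had 4 positive and 1 negative, with a median of 0.57. Stroma genes, led by Dcn, Col3a1 and Col1a1, had 5 positive and a median of 1.44, or 0.90 without control replicate 1. Endothelium genes, led by Pecam1, had a median of 0.20, and of -0.0066 without control replicate 1, where Pecam1 went from 0.68 to -0.039. The other genes of that list, Kdr and Cdh5, reached at most 0.83 and 0.10 TPM and were below the filter.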
